A study of Mus musculus with 2 samples.

Results

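Expression of 10 transcription factors of the hair matrix and of the lineages it produces was compared between mouse skin after FGF18 and after saline. The factors are Foxn1, Msx2, Dlx3, Gata3, Ovol1, Prdm1, Trps1, Cux1, Runx1 and Foxq1, chosen by name for their roles in the follicle. These factors and the gene lists set beside them were chosen with earlier results of these data known. All 10 were measured, among 22180 genes with a symbol of their own. RNA came from the back skin of male BALB/cAJcl mice aged 7 weeks, with 1 Affymetrix Mouse Gene 2.0 ST array for the saline control and 1 for FGF18. For the FGF18 sample, hair was removed to start the growth phase, and 100 µg of FGF18 in saline with 5 µg/µl heparin was injected intraperitoneally 6 days later. A total-body γ-ray dose of 6 Gy followed after 24 h, and the skin was taken 4 h after the dose. The labels name the control only as saline. Whether that sample was depilated, irradiated or given heparin, and how many animals each RNA came from, is not stated, so FGF18 and these other factors cannot be told apart. With 1 array per group there is no spread between animals and no significance test, and every difference below is between these 2 arrays.

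The hair matrix is a pool of dividing cells at the base of the growing follicle. Its daughters become the shaft, with a central medulla inside a keratin-rich cortex, or the inner root sheath, a sleeve that moulds the shaft. BMP, Wnt and Notch signals direct these choices, and the factors studied here act with them or downstream of them. Several of these factors are not particular to the follicle. Ovol1, Prdm1, Gata3, Dlx3 and Foxn1 are also known from differentiating cells of the epidermis between follicles, Runx1 and Gata3 from blood cells, and Prdm1 from the sebaceous gland and plasma cells. In whole skin, fewer cells of a type and less RNA per cell cannot be told apart.

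Promoter sequences were in the RefSeq table (mouse build GRCm38.p6) for 6 of the 10 factors, with 7 start sites because Runx1 has 2. The 250 bases before the start site are shown 5′ to 3′ for Foxn1, Msx2, Cux1 and Prdm1, because these 4 hold a motif of the DNA-binding families to which several of the factors belong. Capitals mark the homeobox motif TAATTA, which reads the same on both strands, and the forkhead motif TGTTTA on either strand. The windows are chr11:78386609-78386858, chr13:53472781-53473030, chr5:136565982-136566231 and chr10:44458749-44458998, all on the minus strand.
Foxn1: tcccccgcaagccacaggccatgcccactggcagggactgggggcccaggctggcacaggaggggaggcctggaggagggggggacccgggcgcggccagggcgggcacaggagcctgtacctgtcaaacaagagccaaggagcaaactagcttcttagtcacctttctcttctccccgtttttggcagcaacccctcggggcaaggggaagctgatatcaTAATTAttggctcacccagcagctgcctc
Msx2: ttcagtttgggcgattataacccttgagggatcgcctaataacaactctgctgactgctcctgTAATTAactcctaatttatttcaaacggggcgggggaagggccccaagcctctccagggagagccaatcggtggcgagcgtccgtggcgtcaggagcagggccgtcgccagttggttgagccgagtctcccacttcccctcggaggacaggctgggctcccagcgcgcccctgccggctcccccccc
Cux1: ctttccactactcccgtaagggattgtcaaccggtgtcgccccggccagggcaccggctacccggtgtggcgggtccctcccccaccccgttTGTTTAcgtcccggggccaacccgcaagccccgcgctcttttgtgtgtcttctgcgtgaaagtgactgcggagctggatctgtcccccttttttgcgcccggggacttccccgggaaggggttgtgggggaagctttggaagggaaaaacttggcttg
Prdm1: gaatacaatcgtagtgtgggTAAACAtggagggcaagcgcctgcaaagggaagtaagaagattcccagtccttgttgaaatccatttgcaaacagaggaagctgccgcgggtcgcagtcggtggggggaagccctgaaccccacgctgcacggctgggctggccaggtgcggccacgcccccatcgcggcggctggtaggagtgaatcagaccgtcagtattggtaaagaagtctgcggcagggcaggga

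Homeobox factors such as Msx2 and Dlx3 and many forkhead factors bind short sequences of these kinds, whereas Foxn1 is an atypical forkhead factor that prefers another core. TAATTA began 29 bases before the start site of Foxn1 and 187 bases before that of Msx2. It was present in 2 of the 7 member promoters and in 4.84% of all 32851 promoters of the same length. TGTTTA began 158 bases before the start site of Cux1, and its reverse complement TAAACA began 230 bases before that of Prdm1, against a share of 12.03% over all promoters. The GATA motif AGATAA and the Runx motif TGTGGT were in none of the 7 windows and in 9.99% and 14.05% of all promoters. The Lef/Tcf core CAAAG, also searched on both strands, was in those of Cux1 and Prdm1 and in 48.6% of all promoters. A match describes the letters in the window and does not show that a factor binds there. Foxn1, Msx2 and Cux1 read higher on the FGF18 array and Prdm1 lower.

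Of the 10 factors 6 were higher and 4 lower on the FGF18 array. Msx2 and Dlx3 were higher by at least 1.5-fold, Prdm1 was lower by at least 1.5-fold, and none reached 2-fold. Each difference is the FGF18 value minus the saline value of log2(intensity + 1), a scale that understates the fold of dim genes, and the median over the 10 factors was 0.31. A filter on level kept the 11090 genes with a mean over both arrays no lower than the median gene's, and all 10 factors passed it. Over these genes the median difference was 0.07. Among these genes, 3.64% passed 1.5-fold on the higher side and 4.63% on the lower side, against 2 and 1 of the 10 factors. At 2-fold the shares were 0.379% and 1.65%. Genes higher by any amount made up 59.4% and genes lower by any amount 38.0% of these genes, beside 6 and 4 of the 10 factors. Both sides of the 1.5-fold counts depend on the scale: 404 genes were higher and 514 lower, 267 and 650 after subtraction of an intensity trend, and 119 and 300 with a pseudocount of 16.

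**Figure D1:**
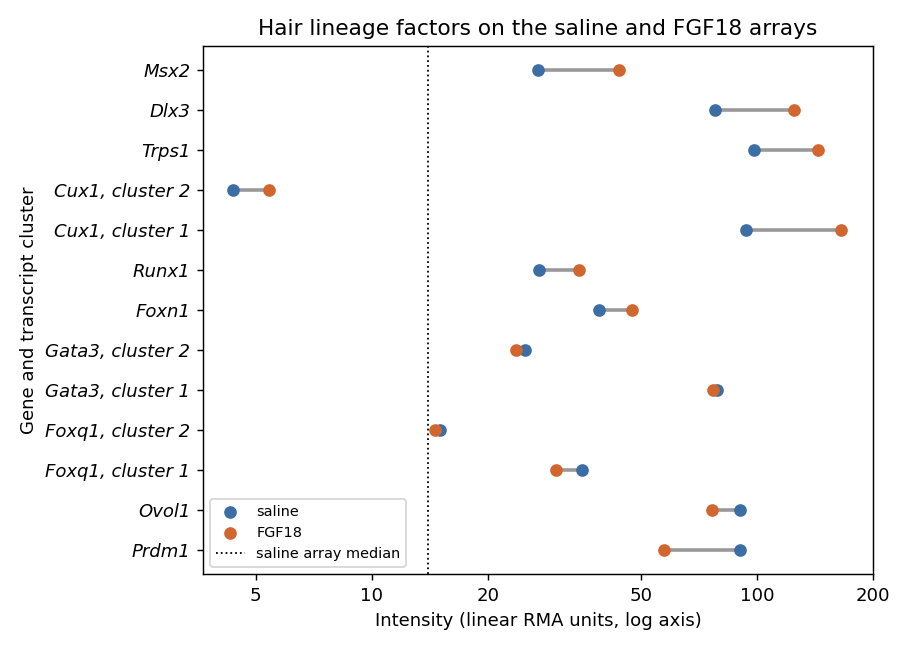
Intensity of each factor on the saline (blue) and FGF18 (orange) arrays, on a log axis in linear RMA units, 1 row per transcript cluster, with the saline array's median dotted. Each point is 1 array without replicates. Cux1 has a dim cluster that read 4.38 and 5.44 and a bright one that read 93.4 and 165, and the largest separations to the right are those of that bright cluster, Msx2 and Dlx3.

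The factors of the shaft lineage did not lie on one side. Msx2, a homeobox factor of the matrix needed for the hair shaft, read 27.0 in saline and 43.8 after FGF18, a difference of 0.68 or 1.60-fold. Dlx3, a homeobox factor needed for hair formation and expressed in matrix, shaft and inner root sheath, read 77.8 and 125, a difference of 0.67 or 1.59-fold. These homeobox factors had the highest differences of the 10, and 2.15% and 2.21% of the genes at or above the median level had a higher one. Foxn1, the gene mutated in nude mice and an activator of hair keratin genes, read 38.9 in saline and 47.4 after FGF18. Its difference was 0.28, and 22.2% of genes at or above the median level had a higher one. Foxq1, the gene of the satin coat mutation, is needed for the medulla. It has 2 transcript clusters, of which the brighter read 35.2 on the saline array and 30.2 on the FGF18 array. The dimmer read 15.01 and 14.6. Its mean difference was -0.13. Ovol1, a zinc finger gene activated by Lef1 and β-catenin in the shaft and also expressed in the upper epidermis, read 90.2 in saline and 76.6 after FGF18, a difference of -0.23.

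Factors of the inner root sheath and of the early follicle also divided. Gata3, a zinc finger factor that specifies the inner root sheath, was nearly equal on both arrays, and its separate clusters were alike in this. The brighter read 78.8 in saline and 76.7 after FGF18, the dimmer 25.0 and 23.6, and the mean difference was -0.06. Cux1, a homeodomain factor with cut repeats whose mutation disturbs the inner root sheath, was represented unevenly. Its bright cluster read 93.4 in saline and 165 after FGF18, a difference of 0.81 or 1.76-fold. Its second cluster read 4.38 and 5.44, below both array medians, so it is not shown above background and has no fold here. The mean of both clusters gave a difference of 0.54, and with the bright cluster alone Cux1 joined Msx2 and Dlx3 above 1.5-fold and led all 10 factors. Trps1, an atypical GATA repressor named for a human syndrome with sparse hair, read 97.9 in saline and 143 after FGF18, a difference of 0.55 or 1.46-fold. Runx1, a Runt factor that promotes the activation of follicle stem cells at the start of growth, read 27.2 and 34.5, a difference of 0.33.

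Prdm1 had the lowest difference of the 10. It encodes Blimp1, a PR-domain repressor found in the sebaceous gland, the inner root sheath, the dermal papilla and cornifying epidermis. Prdm1 read 90.4 in saline and 57.2 on the FGF18 array, or 1.57-fold lower. Of genes at or above the median level, 3.75% had a lower difference than its -0.65. The gap to its neighbour in the order, Ovol1, was 0.42. As a technical yardstick, differences from separate clusters of the same symbol were compared, among clusters that were themselves at or above the median level. They scattered with an SD of 0.24 over 319 symbols, which gives an SD of 0.34 for the gap between 2 genes. Of the 9 gaps between neighbours in the order only that between Ovol1 and Prdm1 was larger. The gap between Foxn1 and Gata3, at 0.335, was just under the SD of 0.344. Sorting by difference makes gaps between neighbours small, so a gap within this SD does not show that 2 factors were alike. The yardstick holds no variation between animals and leaves out the dimmer clusters of Cux1 and Foxq1.

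**Figure D2:**
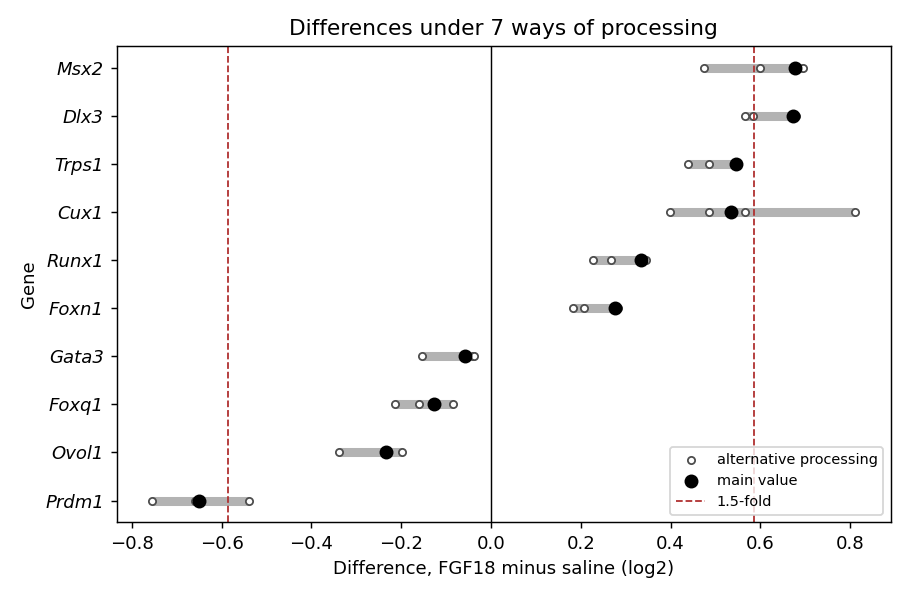
Difference of each factor, FGF18 minus saline on a log2 axis, with the main value in black, 6 alternatives as open circles and their range as a grey bar; dashed lines mark 1.5-fold. No factor crossed 0 under these alternatives, Msx2, Dlx3 and Prdm1 fell inside the dashed lines under at least 1 of them, and Cux1 had the widest range, from 0.40 to 0.81.

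The 1.5-fold calls were close to the threshold, which is 0.58 on the log2 scale. Just inside it were Prdm1 (-0.65), Dlx3 and Msx2, and just outside it Trps1 and the mean of the Cux1 clusters. With a pseudocount of 16 none of the 10 factors reached 1.5-fold, and the folds of Prdm1, Trps1 and Msx2 were then 1.45, 1.40 and 1.39. Dlx3 at 0.584 on the log2 scale then lay just under the threshold of 0.585. After subtraction of the intensity trend Msx2 remained above 1.5-fold at 0.60, Dlx3 was at 0.57, and Prdm1 was at -0.76.

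**Figure D3:**
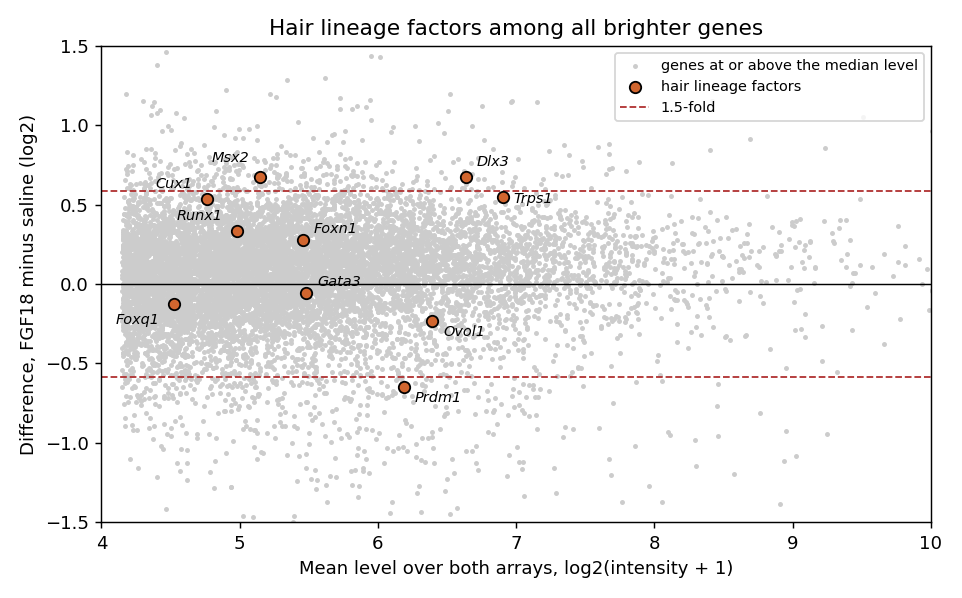
Difference, FGF18 minus saline (log2), against the mean level over both arrays for genes at or above the median level (grey) and the 10 factors (orange), with dashed lines at 1.5-fold. The axes leave out 133 genes beyond a difference of 1.5 in either direction or a level of 10. Msx2 and Dlx3 lie above the upper line, Prdm1 below the lower one, and the other 7 factors between the lines.

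Relatives of the factors in the same gene families lay on both sides. Of 27 measured relatives, 11 were higher, 12 lower and 4 equal on both arrays, beside 49.5% of all genes that were higher. The median was 0.00 (-0.02 after subtraction of the intensity trend, 0.15 over those at or above the 75th percentile of level). None reached 1.5-fold, beside 2.61% of all genes with a symbol on the higher side and 4.15% on the lower side, so a count of 0 among 27 is near the background. Only 12 of the 27 passed the filter on level. The homeobox relative Dlx4 read 14.3 in saline and 20.9 after FGF18, a difference of 0.52, whereas Dlx5 read 33.3 and 26.6, a difference of -0.31. Dlx2 read 32.9 and Runx3 19.7 on both arrays, Msx3 read 24.4 and 25.5, and Gata4 read 22.0 and 21.7. The PR-domain relatives Prdm10 and Prdm4 had differences of 0.47 and -0.13.

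The other transcription factors of the follicle spanned a wider range than the 10, which a list of 30 genes can do by its size alone. Their median was 0.23 over 30 measured genes, 22 higher and 8 lower, beside 49.5% of all genes that were higher. Of the 28 that passed the filter on level 20 were higher, or 71.4%, beside 59.4% of all genes that passed it. Of the 30, 3 passed 1.5-fold on the higher side and 1 on the lower side. All 4 are among the 28, where the shares over all genes that passed are 3.64% and 4.63%. The count on the lower side is near its share. Whether the count on the higher side exceeds its share was not tested. Each group has 1 array, and the list was chosen with earlier results of these data known. Hoxc13, a homeobox activator of hair keratin genes, read 18.5 in saline and 40.5 after FGF18, and Lef1, the effector of Wnt signals in the matrix, read 97.3 and 169. Grhl3, an activator of epidermal barrier genes, read 124 and 56.5, and Ets2 read 191 and 128. Among these 30 genes, Nfib, Zfp750 and Hoxc12 had the differences nearest to the median of the 10 factors, at 0.30, 0.33 and 0.27. With only 2 arrays this likeness is a single difference, and Hoxc12, at 11.1 and 13.6, was below both array medians.

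Genes for partners of the factors had a median of 0.08 over 11 measured, 7 of them higher and 4 lower, beside 49.5% of all genes that were higher. None passed 1.5-fold, which at the shares of 2.61% and 4.15% over all genes is no result about the partners. Cbfb, the DNA-binding partner of Runx1, read 82.4 in saline and 102 after FGF18, a difference of 0.31 beside 0.33 for Runx1. The co-repressor gene Tle3 had the highest difference of the list, 0.36. Ehmt2, a histone methyltransferase gene, read 56.2 and 47.7, a difference of -0.23, and Zfpm1, which encodes a cofactor of GATA proteins, had one of -0.09.

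Genes for signals that act upstream were mostly higher on the FGF18 array. Of 22 measured, 19 were higher, 2 lower and 1 equal, beside 49.5% of all 22180 genes that were higher. The median was 0.38, against 0.00 over all 22180 genes. Over the 18 that passed the filter on level it was also 0.38, against 0.07 over all genes that passed it. After subtraction of the intensity trend the median of the 22 was 0.30. Of the 18 that passed the filter on level, 4 passed 1.5-fold on the higher side and 1 on the lower side, beside 3.64% and 4.63% of all genes that passed it. The receptor gene Notch1 read 138 in saline and 230.2 after FGF18, a difference of 0.74, and the Notch ligand gene Jag1 read 122 and 197, a difference of 0.69. Notch2 was lower at -0.14. Wnt10a, a Wnt ligand of the matrix and epidermis, read 39.6 and 24.8, a difference of -0.65, whereas Wnt10b read 27.0 and 35.1. Fgf10 was below the saline array's median in saline, so it has no fold here.

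The structural genes of both lineages had higher medians than the 10 factors. All 11 inner root sheath markers were higher, beside 49.5% of all genes with a symbol. Their median was 0.96. The lowest value, 0.22, was that of Krt74, which read 9.50 in saline and 11.2 after FGF18, below both array medians. Gata3 at -0.06 lay below all 11 markers, as did Foxq1, Ovol1 and Prdm1. Msx2, Dlx3, Trps1, Cux1, Runx1 and Foxn1 each lay below 9 of the 11. The highest markers were Krt28 at 1.16 and Krt72 at 1.14, and the lowest of those that passed the filter on level were Tchhl1 at 0.24 and Padi3 at 0.77. The median over 15 hair shaft keratins was 0.53, with 14 of them higher. Foxn1, at 0.28, lay below 11 of these 15, and Msx2 and Dlx3 below 6. Krt31 and Krt82 had differences of 1.22 and 1.02, Krt34 one of 0.10 and Krt81 one of -0.47.

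Markers of the upper epidermis lay on the other side. All 13 suprabasal markers passed the filter on level and were at least 1.5-fold lower, beside 4.63% of all genes that passed it. The median of the 13 was -1.71, and their summed intensity was 18428 in saline and 5301 after FGF18. Krt1 and Casp14 had the lowest differences, at -2.96 and -2.26, and Sbsn and Lor the highest, at -1.12 and -0.95. None of the 13 was below an array's median. These values stand beside the lower readings of Prdm1 and Ovol1, and beside Dlx3 and Foxn1, which are also known from differentiating epidermis and were higher. The part of the epidermal markers in any factor's difference was not tested.

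**Figure D4:**
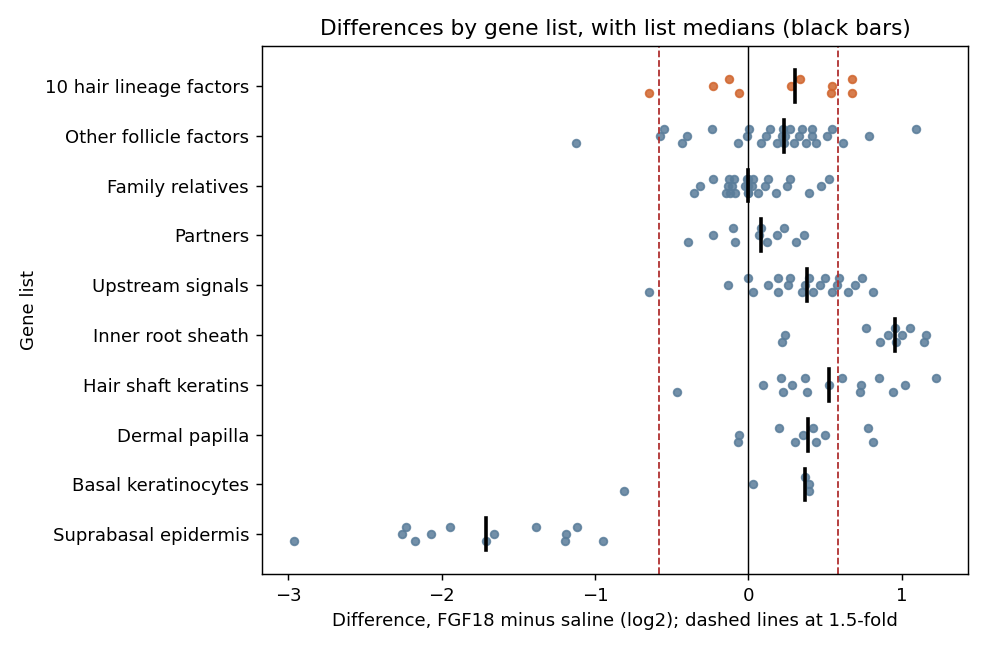
Difference of each measured gene, FGF18 minus saline on a log2 axis, by gene list, with the list median as a black bar and dashed lines at 1.5-fold. The median of the 10 factors (orange) is 0.31, between those of inner root sheath markers (0.96) and suprabasal epidermis markers (-1.71), as are the medians of all other lists shown. Differences of the factors overlap those of the inner root sheath markers, and family relatives of the factors centre on 0.00.

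Other cells that can carry these factors were summarised in the same way. By any amount, 49.5% of all genes were higher, and 59.4% of those that passed the filter on level. The 5 basal keratinocyte markers had a median of 0.37, with Krt15 at 0.40, Col17a1 at 0.39, Itga6 at 0.03 and Krt14 at -0.81, and their summed intensity was 1326 in saline and 1290 after FGF18. With clusters of several symbols counted under their first, Itgb4 gained a second cluster and the median of these 5 genes was 0.15. Sebaceous gland markers, relevant to Prdm1, had 3 of 6 higher and a median of -0.01 (-0.13 over the 5 at or above the median level), from Elovl3 at -0.28 and Scd1 at -0.13 to Awat1 at 0.11 and Mc5r at 0.10 among those 5. Their summed intensity was 676 and 615. Dermal papilla markers had 8 of 10 higher, a median of 0.39 and a summed intensity of 557 and 764. Wif1 was at 0.78, Fgf7 at 0.50, Alx4 at -0.07 and Crabp1 at -0.06, and 3 of the 10 markers (Sox18, Fgf7 and Fgf10) are also in other lists used here. Of 9 T cell markers, relevant to Gata3 and Runx1, 6 were below the array median on each array, though not the same 6 on both. Cd3d, Cd4 and Cd8a were below both medians. Only Cd5 passed the filter on level, at 21.6 in saline and 19.3 after FGF18, and the list's summed intensity was 111 and 108. Of 6 B and plasma cell markers 5 were below the median on each array, the summed intensity was 58.2 and 59.6, and Mzb1 read 18.9 and 19.2. All 8 macrophage markers were higher, with a median of 0.29 and a summed intensity of 178 and 232, from Csf1r at 0.04 and C1qb at 0.17 to C1qa at 0.51 and Lyz2 at 0.57 among the 5 that passed the filter on level. Of 10 proliferation genes, which mark dividing cells such as those of the matrix, 7 were higher, with a median of 0.20 and a summed intensity of 887 and 1013. All 10 passed the filter on level, so 7 of 10 is near the share of 59.4%. Mcm7 and Pcna were at 0.48 and 0.37, and Cdk1 and Top2a at -0.40 and -0.23. The part of these cell types in the differences of the 10 factors was not tested.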

How the data were processed

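Total RNA from skin was hybridised to 1 array per group, as the sample labels name them. The authors made the values with RMA in Affymetrix Expression Console, per the submitters' processing notes. RMA subtracts background, gives all arrays the same distribution and combines the probes of each transcript cluster. The deposited values were taken as intensity on a linear scale, judged from their range. The table held 41345 clusters, of which 23521 had 1 symbol in the platform annotation, 1814 several and 16010 none. Only those with 1 symbol were used, and clusters of a symbol were averaged after log2(intensity + 1). Values below an array's median are given without a fold, because no detection calls were used. A gene was counted where its mean level reached the median over genes, with thresholds of 1.5-fold and 2-fold. Having 1 array per group limits the precision, and no p-value was computed.

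The members and lists were chosen with earlier results of these data known. Named genes were the 10 factors, the 2 highest and 2 lowest of each of the other 14 lists among counted genes, the 3 follicle factors nearest to the members' median and the counted Msx, Dlx, Gata, Ovol, Cux and Runx relatives. Wnt10b, Fgf10, Itgb4, Sox18, Krt74, Cd3d, Cd4, Cd8a, Gata2, Cux2 and Bmp2 were added after their values were seen. Symbols were matched to RefSeq promoters (GRCm38.p6). Alternatives were a pseudocount of 16 or none, centring, subtraction of a loess trend (span 0.3), the brightest cluster, clusters of several symbols under the first, other filters on level and the 2-fold threshold. Steps were tested on simulated data and run in Python 3.11.15 with pandas 2.3.3 and statsmodels 0.14.6.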

Additional observations from a re-analysis of the deposited data

How the results depend on the processing

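None of the 10 factors changed direction under the 6 alternatives for values and clusters. Of the 60 alternative differences, 27 could not differ from the main value (centring on a median of 0, clusters of several symbols, and the brightest cluster of factors with 1 cluster). Of the other 33, 32 stayed within 0.24 of it, and the exception was Cux1 with its brightest cluster, at 0.81. The median of the factors was 0.22 both with a pseudocount of 16 and after trend subtraction. The count of factors at least 1.5-fold higher was 0 with a pseudocount of 16, 1 after trend subtraction, 1 among genes at or above the 75th percentile of level and 0 at 2-fold. The count lower was 0 with that pseudocount and 0 at 2-fold. Over all counted genes, those higher numbered 119 with that pseudocount, 267 after trend subtraction, 206 above the 75th percentile and 42 at 2-fold. Those lower numbered 300 with that pseudocount, 321 above that percentile and 183 at 2-fold. With no filter, 920 of all 22180 genes were lower by at least 1.5-fold. The stricter filter and threshold test fewer genes or ask for more, and leaving out the filter takes in more genes. A pseudocount of 16 makes the log2 difference of a cluster smaller. For trend subtraction the cause was not tested. Of 124 alternative list medians 23 moved beyond their yardstick. No paired analysis was possible because each group has 1 array. Signal limits the dimmer Foxq1 cluster, which is near the array medians, and the second Cux1 cluster, which is far below them.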

Other observations

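Exact ties between the arrays were seen among relatives of the factors. Dlx2, Gata2, Cux2 and Runx3 each had the same deposited intensity on both arrays, at 32.9, 4.73, 13.8 and 19.7, as did the ligand gene Bmp2 at 18.2. None of the 10 factors was tied. Over all 22180 genes 1116 were tied, which is 5.03%, and of the genes that passed the filter on level 294 were, which is 2.65%. A cluster that the annotation gives to Gata3 together with 2 RIKEN genes was left out, and it read 7.23 in saline and 9.30 after FGF18, below both array medians.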
